A study of Mus musculus with 20 samples.

Results

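The 10 genes of the MHC class I presentation pathway described here were *H2-K1*, *H2-D1*, *B2m*, *Tap1*, *Tap2*, *Tapbp*, *Nlrc5*, *Psmb8*, *Psmb9* and *Psmb10*. They were taken by their symbols from the 25869 genes of the deposited expression table, and all 10 had a row. Class I molecules present short peptides from inside the cell to CD8+ T cells. The immunoproteasome subunits PSMB8, PSMB9 and PSMB10 replace the constitutive catalytic subunits PSMB5, PSMB6 and PSMB7 and change the peptides that the proteasome makes, the transporter TAP1/TAP2 pumps these peptides into the endoplasmic reticulum, and tapasin, the product of *Tapbp*, holds the transporter close to the empty class I molecule. *H2-K1* and *H2-D1* encode the classical heavy chains, which reach the cell surface paired with β2-microglobulin (*B2m*), and NLRC5 is a transcriptional activator of many of these genes, which interferons also induce.

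The study built a mouse strain with a CRISPR activation (CRISPRa) system and used it to raise Bcl-2 expression from its own promoter in lymphomas driven by Myc, and RNA-seq was performed on 20 libraries. The 10 libraries of mouse embryonic fibroblasts (MEFs) came from embryos of day 14: 2 from WT embryos and 8 from dCas9a-SAM KI/+ embryos, which carry 1 copy of the CRISPRa cassette in the *Rosa26* locus under the ubiquitous CAG promoter. Of these 8 libraries, 2 had no sgRNA, 2 carried a non-targeting sgRNA (sgNT) and 4 carried sgBcl-2, the last from 2 MEF lines with 2 libraries each. The 6 lymphoma cell lines had the genotype Eµ-Myc/dCas9a-SAM KI/+/sgBcl-2, where the Eµ enhancer of the immunoglobulin heavy chain drives Myc in B lineage cells. Each line came from the tumour of 1 recipient mouse transplanted with transduced foetal liver cells, and 4 were labelled IgM-positive (14_179_IgMp, 15_180_IgMp, 16_202_IgMp and 17_213_IgMp) and 2 IgM-negative (18_214_IgMn and 19_216_IgMn). In these names the library number comes first and the mouse number second, and the lines are called by the library number here (lines 14 to 19). The 2 primary tumours were IgM-positive tissue of the mice that gave lines 14 and 15, in which cells of the host can remain. The 2 preB-ALL libraries had the genotype BCR-ABL1 (p190T/+), were grown with IL7 and carried neither the Myc transgene nor the cassette on their labels. Their titles differ, P190CreERLSLErg for library 1 and P190RagCreErg for library 2, and name further elements that the genotype label does not give, so the 2 libraries may not share all alleles. No lymphoma without sgBcl-2, without the cassette or without the Myc transgene was among the libraries, so all 8 lymphoma samples share these 3 alterations. The labels do not say that the MEF libraries of a group were separate cultures beyond their line numbers, and their p-values then measure only the spread between these libraries.

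Depth was between 12474885 and 26678417 reads per library (median 23229458), with the 2 preB-ALL libraries lowest. The targeted gene *Bcl2* was at 11.2 to 17.9 CPM (reads per 1000000 reads counted) in the 6 MEF libraries without sgBcl-2 and at 46.8 to 71.8 CPM in the 4 with it. The summed level of 10 B cell markers was 1211 to 9898 CPM in the lymphoma lines and tumours and 4471 to 8702 CPM in preB-ALL, against 12.3 to 25.9 CPM in the MEFs. Some libraries stood apart from their labels. WT MEF library 2 held macrophage transcripts, with *Lyz2* at 104 CPM and *Cd68* at 47.9 CPM, and less of the fibroblast collagen *Col1a1* than WT library 1 (352 against 3682 CPM). Its endothelial markers summed to 69.2 CPM against 8.27 CPM in WT library 1, and its dendritic cell markers to 6.91 against 2.02 CPM. In preB-ALL fibroblast transcripts were found, with *Col1a1* at 855 and 456 CPM, against 0.526 and 0.698 CPM in the primary tumours, and all 15 mitochondrial genes of the table were at 0 in them. The preB-ALL libraries were also prepared with another RNA kit and sequenced in another run. The labels of the primary tumours contradict each other on which tumour came from which of the mice of lines 14 and 15.

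In mouse genome build GRCm38, 7 of the 10 genes lie in the MHC region of chromosome 17, within 1348020 bases from *Tapbp* (17:33919478-33929290) over *H2-K1* (17:33996012-34000619) to *H2-D1* (17:35263094-35267497). *Psmb9*, *Tap1*, *Psmb8* and *Tap2* follow each other within 34292 bases (17:34182030-34216321), and the starts of *Psmb9* and *Tap1* are 226 bases apart on opposite strands. *B2m* is on chromosome 2 (2:122147687-122153082), *Nlrc5* (8:94434335-94527272) and *Psmb10* (8:105935728-105938392) on chromosome 8. RefSeq promoter windows of GRCm38.p6, from 250 bases before to 50 after the transcription start, were found for 8 of the 10 genes and for 18451 genes of the table. Class I promoters are known for a conserved module whose end holds a cyclic AMP response element core, with letters TGACG, followed by a CCAAT box on the opposite strand, read here as ATTGG. The *H2-K1*, *H2-D1* and *B2m* windows each hold both, and these stretches are shown because the spacing is the same in the 3 genes. Capitals mark the TGACG core and the inverted CCAAT box, and the sequences run 5′ to 3′ on the strand of each gene.
H2-K1, chr17:34000359-34000388, minus strand, bases -41 to -12: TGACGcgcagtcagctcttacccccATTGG
H2-D1, chr17:35262993-35263022, plus strand, bases -101 to -72: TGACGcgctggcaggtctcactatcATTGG
B2m, chr2:122147609-122147638, plus strand, bases -78 to -49: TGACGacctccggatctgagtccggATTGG

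The first base of the TGACG core and the first base of ATTGG were 25 bases apart in all 3 genes. This spacing, which was chosen after the sequences were seen, occurred in 15 of the 18451 windows (0.0813%), and the other class I heavy chain gene *H2-M3* was among them. Around the TGACG core, *H2-K1* and *H2-D1* were identical at 128 of 141 aligned bases (90.8%), whereas *H2-K1* and *B2m* were identical at 51 of 141 (36.2%) and *H2-D1* and *B2m* at 51 of 150 (34.0%). The longer stretches of *H2-K1* and *B2m* show what lies upstream of the shared module in a heavy chain gene and in the light chain gene. The letters GAAANNGAAA, 1 form of the core of an interferon-stimulated response element, were found at base -139 of *B2m* and in none of the other 7 windows, and they are in capitals as well. The *H2-K1* promoter is known for an interferon response sequence of other letters, which this pattern does not match. Positions in *H2-K1* are counted from the transcript start of its promoter window at 17:34000347, and the RefSeq gene span given above begins 272 bases further upstream, so the *H2-K1* stretches lie inside that span. For the other 7 windows the 2 starts are the same base. All 30 bases of the *H2-D1* stretch above, and of the *Tap1* and *Psmb8* stretches below, lie in an annotated GENCODE exon. The *H2-K1* stretches hold no such base.
H2-K1, chr17:34000348-34000527, minus strand, 180 bases before the start: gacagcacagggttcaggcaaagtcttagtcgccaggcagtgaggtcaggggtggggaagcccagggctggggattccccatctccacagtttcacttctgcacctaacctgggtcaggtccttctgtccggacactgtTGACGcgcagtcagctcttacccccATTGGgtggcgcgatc
B2m, chr2:122147507-122147686, plus strand, 180 bases before the start: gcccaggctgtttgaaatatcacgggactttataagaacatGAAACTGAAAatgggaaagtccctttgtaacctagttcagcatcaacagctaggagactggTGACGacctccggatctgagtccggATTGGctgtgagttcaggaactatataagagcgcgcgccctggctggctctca

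The *Tap1* and *Psmb8* stretches are shown because *Tap1*, like the heavy chains, was lower in both IgM-negative lines than in the IgM-positive lines and *Psmb8* was not. Of the other genes lower in both, *Psmb9* also holds TGACG, whereas *Tapbp* and *Psmb10* do not. A link between these letters and the levels was not tested. Capitals mark the core TGACG in *Tap1*, which has no inverted CCAAT box 25 bases on, and in *Psmb8* a gamma-activated sequence, with letters TTCNNNGAA, the element bound by STAT factors after interferon-γ. The letters TTCNNNGAA read the same on both strands.
Tap1, chr17:34187458-34187487, plus strand, bases -98 to -69: cccagagacaggTGACGacagagggtcctg
Psmb8, chr17:34198088-34198117, plus strand, bases -107 to -78: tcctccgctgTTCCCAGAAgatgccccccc

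**Figure D1:**
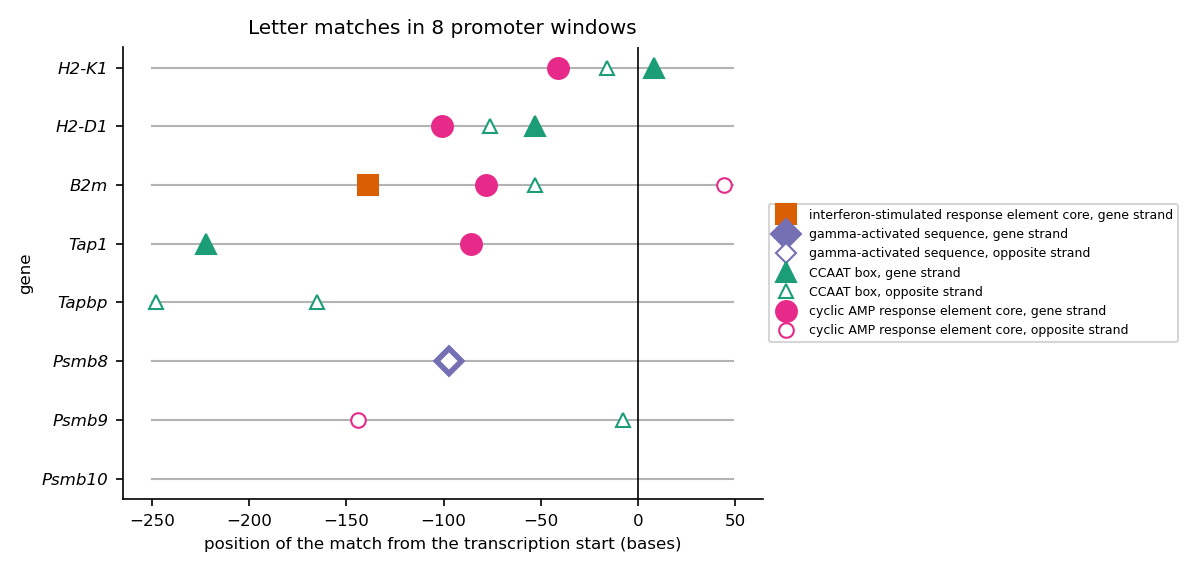
Letter matches in the RefSeq promoter windows of 8 of the 10 genes, plotted by distance in bases from the transcription start, with filled markers for the strand of the gene and open markers for the opposite strand. In *H2-K1*, *H2-D1* and *B2m* the TGACG core is followed by a CCAAT box on the opposite strand 25 bases further on, the *Psmb8* match reads on both strands, and the *Psmb10* window holds no match.

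On both strands, TGACG was found in 5 of the 8 windows, against 4414 of all 18451 (23.9%), and CCAAT in 6 of the 8, against 7241 (39.2%). The letters GAAANNGAAA were in 627 windows (3.4%), among the 8 genes in *B2m*, and the gamma-activated sequence in 1465 (7.94%), among them in *Psmb8*. A match of letters is a description of the sequence, and binding was not measured in these samples.

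Levels between genes were compared per kb of exon sequence, taken as the union of all GENCODE exons of a gene. This union was 3381 bases for *Psmb8*, 3660 for *Psmb9* and 1705 for *Psmb10*, and the order of the genes depends on it. *B2m* was the highest of the 10 genes in every group, with a mean of 621 CPM per kb over the 10 MEF libraries, 438 over the 6 lymphoma lines, 771 in the primary tumours and 942 in preB-ALL. In the MEFs the heavy chains *H2-K1* (37.8 CPM per kb) and *H2-D1* (37.4) and then *Tapbp* (23.2) followed, while the immunoproteasome subunits *Psmb8* (0.457) and *Psmb9* (0.109) were the lowest of the 10. This order of the 3 was not that of every MEF group, since *H2-D1* was above *H2-K1* in the WT MEFs (40.9 against 25.1 CPM per kb) and in the MEFs without an sgRNA (31.9 against 14.0), where *Tapbp* (17.2) lay between them. In the lymphoma lines *Psmb8* (40.4 CPM per kb) and *Psmb10* (38.2) came directly after *H2-D1* (65.3) and *H2-K1* (53.1), and *Nlrc5* was the lowest (4.76). These means pool lines with unlike heavy chain levels, and in the IgM-negative lines alone *Psmb8* (40.5) lay above *H2-D1* (28.8), *Psmb10* (27.7) and *H2-K1* (13.2). The order in the primary tumours and in preB-ALL began in the same way, with *B2m*, the heavy chains, *Psmb8* and *Psmb10*, and *Nlrc5* was again the lowest at 10.6 and 7.98 CPM per kb. The authors counted reads per gene, and *H2-K1* and *H2-D1* share near-identical sequence with each other and with the other class I heavy chain genes, so that the division of reads between their rows is uncertain.

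**Figure D2:**
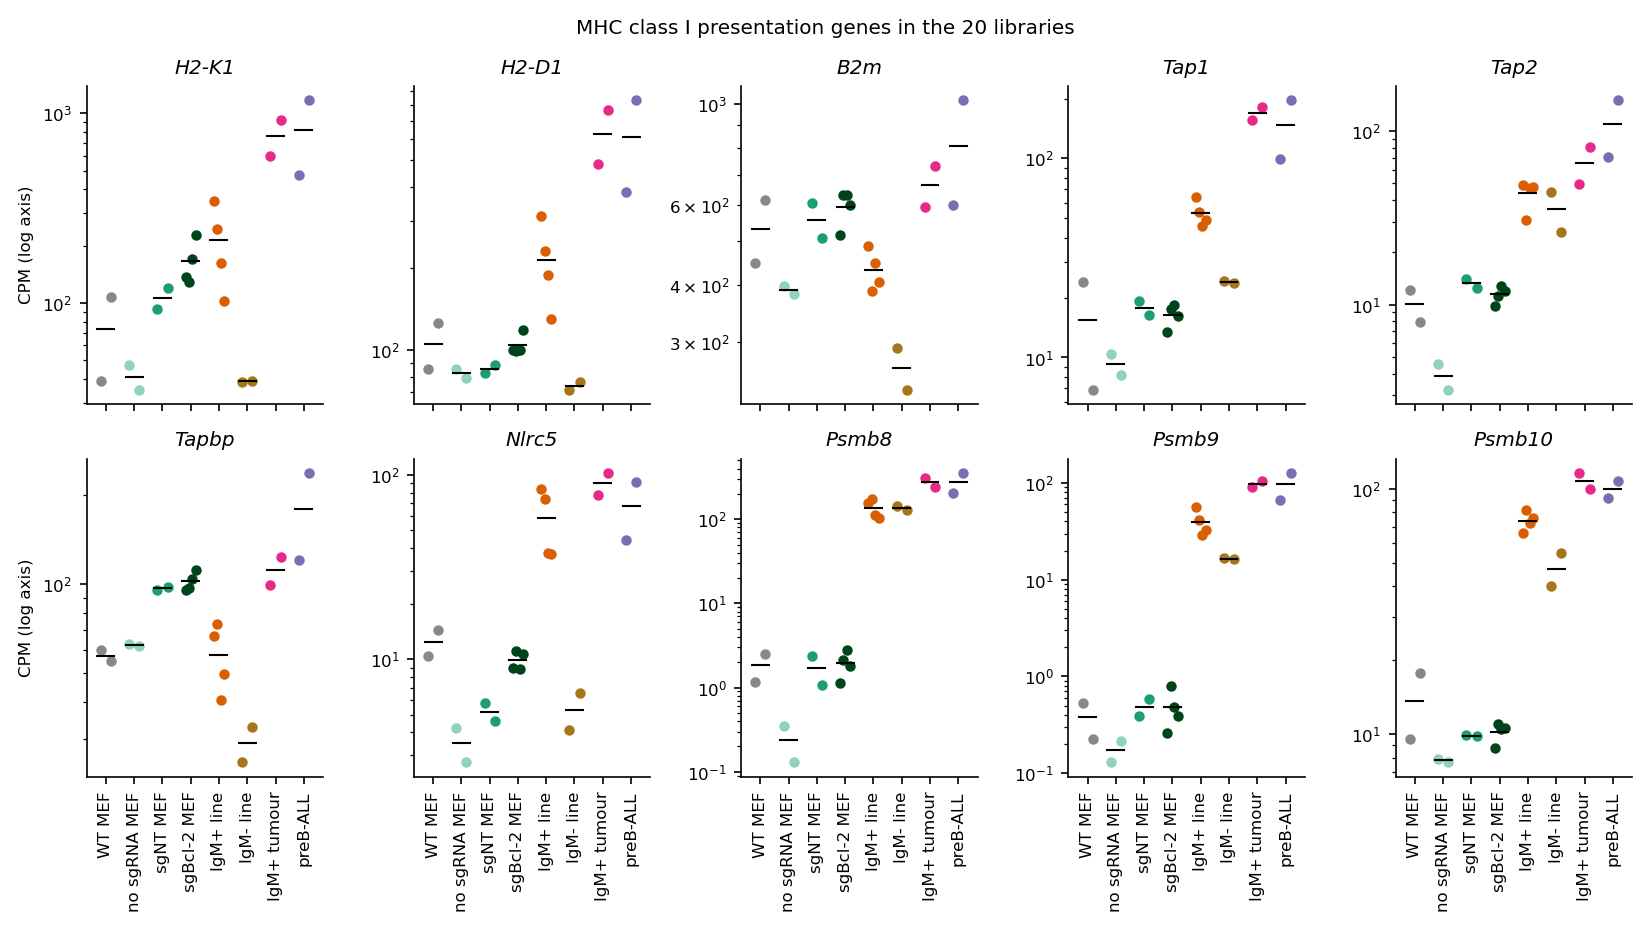
Level of each of the 10 genes in each of the 20 libraries in CPM on a log axis, with 1 point per library and a bar at the mean of each group. *Tap2* and the immunoproteasome genes *Psmb8*, *Psmb9* and *Psmb10* separate all MEF libraries from all B lineage libraries, whereas *H2-K1*, *H2-D1* and *Nlrc5* are low in the 2 IgM-negative lines.

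The lymphoma lines were first set against the MEFs that carry the same cassette and the same sgRNA target, to describe how the pathway differs between a B lineage tumour and a fibroblast. The largest differences were in the immunoproteasome. *Psmb8* was at 1.12, 2.15, 2.83 and 1.80 CPM in the 4 sgBcl-2 MEF libraries and ranged from 104 to 175 CPM, with a median of 137, in the 6 lines. It rose by 5.92 on the log2 scale in the lines (SE 0.23, limma, adjusted p = 1.64e-09), a 69.3-fold difference of mean CPM. *Psmb9* was at 0.259, 0.791, 0.485 and 0.386 CPM in the MEFs, which rests on 6 to 21 reads per library, and from 16.2 to 56.2 CPM, with a median of 30.9, in the lines. Its difference was 5.57 (SE 0.39, limma, adjusted p = 1.96e-07), but *Psmb9* met the filter on low values only through the lines and therefore had to differ. *Psmb10*, which was already present in the MEFs at 8.77 to 11.0 CPM, ranged from 39.9 to 81.8 CPM in the lines and was higher by 2.45 (SE 0.18, limma, adjusted p = 2.54e-07). Every line was above every MEF library for these 3 genes, as for 36.4% of all genes tested.

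The peptide transporter also rose. *Tap2* was at 9.85, 11.2, 12.8 and 12.0 CPM in the sgBcl-2 MEFs and from 26.3 to 49.2 CPM in the lines (log2 difference 1.61, SE 0.21, limma, adjusted p = 2.88e-05). *Tap1* was at 13.3, 17.5, 18.4 and 16.2 CPM in the MEFs and from 23.6 to 64.1 CPM in the lines (1.14, SE 0.28, limma, adjusted p = 0.00321). *Tapbp* and *B2m* went the other way. *Tapbp*, at 96.1, 97.5, 104 and 112 CPM in the MEFs, lay between 25.0 and 73.4 CPM in the lines and fell by 1.36 (SE 0.26, limma, adjusted p = 0.000579). *B2m*, at 516, 633, 632 and 602 CPM in the MEFs, lay between 236 and 488 CPM in the lines and fell by 0.88 (SE 0.19, limma, adjusted p = 0.00129). For both genes, every line was below every MEF library, as for 38.9% of all genes tested.

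*H2-K1*, *H2-D1* and *Nlrc5* did not pass the test. *H2-K1* ranged from 38.6 to 346 CPM over the lines, around the 129 to 230 CPM of the sgBcl-2 MEFs (log2 difference -0.70, SE 0.61, limma, adjusted p = 0.306). *H2-D1* ranged from 71.6 to 311 CPM in the lines and from 99.02 to 119 CPM in the MEFs (0.31, SE 0.38, limma, adjusted p = 0.470). *Nlrc5* ranged from 4.10 to 83.7 CPM in the lines and from 8.81 to 11.1 CPM in the MEFs (1.15, SE 0.81, limma, adjusted p = 0.209). The lines lay on both sides of the MEFs for these genes. In all, 5 of the 10 genes passed as higher, where 36.3% of the 14620 genes tested did, and 2 passed as lower, where 45.0% did. Of the 9 genes that met the filter in both groups, all but *Psmb9*, 4 passed as higher and 2 as lower. The median difference over the 10 genes was 1.15 and over these 9 it was 1.14, against -0.27 over all genes tested. Fibroblast markers summed to at most 6.75 CPM in the lines, so that the cells differ in type throughout, and tissue of origin, Myc and culture medium cannot be told apart.

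Since the immunoproteasome subunits replace constitutive ones, the log2 ratio of each pair was taken within each library. The mean ratio of *Psmb8* to *Psmb5* was 0.36 ± 0.36 (SD, n = 6) in the lines and -5.42 ± 0.61 (SD, n = 4) in the sgBcl-2 MEFs. The ratio of *Psmb9* to *Psmb6* was -2.11 ± 0.75 (SD, n = 6) and -7.35 ± 0.51 (SD, n = 4), and that of *Psmb10* to *Psmb7* was -1.58 ± 0.46 (SD, n = 6) and -3.44 ± 0.21 (SD, n = 4). The ratios of the lines lay above those of the MEFs for all 3 pairs, by 5.78, 5.24 and 1.85. The exact permutation test over libraries (two-sided) gave p = 0.00952 for each, the smallest value that 6 against 4 libraries allow. After adjustment over the 3 ratios the p of this test was also 0.00952. The 4 MEF libraries came from 2 MEF lines, and the test took libraries as its units. With lines as the units, a p this small could not be reached. The *Psmb9* ratio rests on 6 to 21 reads of *Psmb9* in each of these MEF libraries, below the filter on low values in 2 of the 4. Its difference is therefore a description. The constitutive partners had smaller differences. *Psmb5* ranged from 94.3 to 119 CPM in the lines and from 77.8 to 92.9 CPM in the sgBcl-2 MEFs and did not pass (log2 difference 0.13, limma, adjusted p = 0.226). *Psmb6* and *Psmb7* passed as higher in the lines, by 0.31 (limma, adjusted p = 0.00506) and 0.60 (limma, adjusted p = 0.000234).

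**Figure D3:**
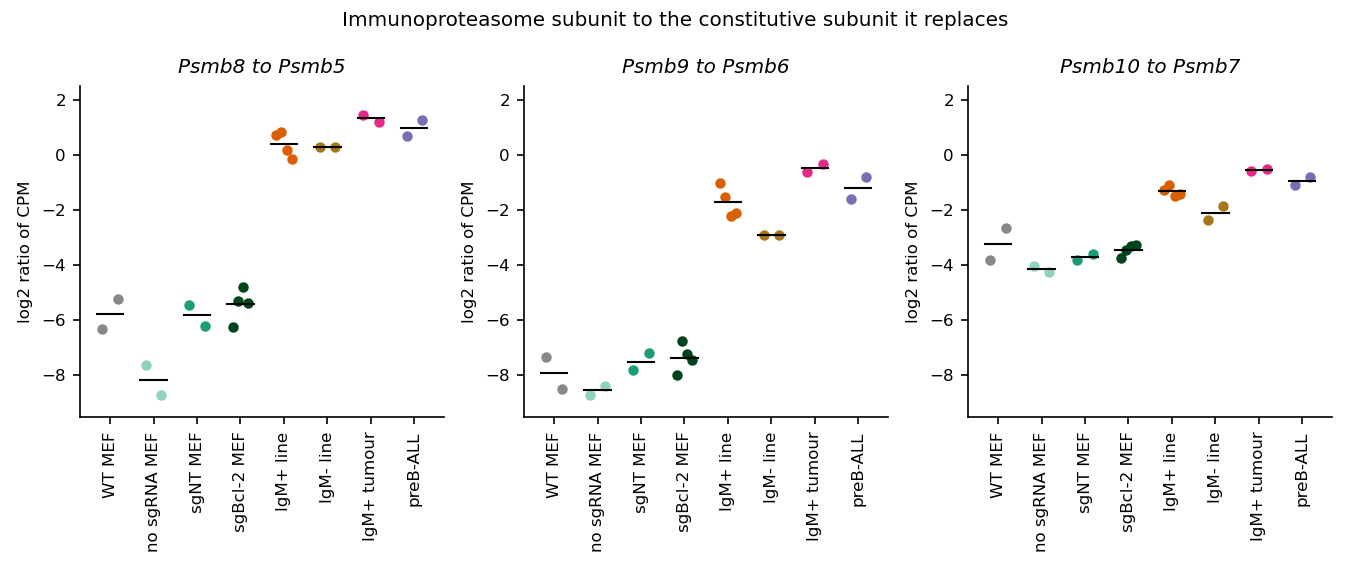
Log2 ratio of the CPM of each immunoproteasome subunit to that of the constitutive subunit it replaces, with 1 point per library and a bar at each group mean. The ratios are not corrected for gene length and serve only to compare libraries: for *Psmb8* to *Psmb5* the 10 MEF libraries lie between -8.72 and -4.79 and the 6 lymphoma lines between -0.13 and 0.82.

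In the primary tumours the 3 mean ratios were 1.33, -0.47 and -0.54, and in preB-ALL they were 0.98, -1.20 and -0.95. Among the lines, the *Psmb9* to *Psmb6* ratio was -1.71 in the IgM-positive and -2.92 in the IgM-negative mean. The IgM-negative lines lay below all 4 IgM-positive lines for this ratio and for *Psmb10* to *Psmb7*, and within their range for *Psmb8* to *Psmb5*. Other parts of the proteasome were also higher in the lymphoma lines. Of 16 other 20S subunits and assembly factors, 14 passed as higher than in the sgBcl-2 MEFs and none as lower (list median 0.98), led by the assembly chaperones *Psmg4* (2.57) and *Psmg3* (2.29). All 4 proteasome activator genes passed as higher, with *Psme3* at 1.74 and *Psme1*, a subunit of the interferon-induced PA28 cap, at 1.61.

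The rest of the pathway was divided in this comparison, in which 36.3% of all genes passed as higher and 45.0% as lower. Among 16 other class I heavy chain genes, 1 passed as higher, *H2-T24* (1.97), and 9 as lower, led by *Fcgrt* (-8.41), the neonatal Fc receptor, and *H2-Q10* (-5.11). Of these 10 genes, 5, with *Fcgrt* and *H2-Q10* among them, met the filter only through the MEFs. Of 11 peptide trimming and loading helpers, 2 passed as higher, the aminopeptidase *Erap1* (2.56) and the hydrolase *Blmh* (2.15), and 6 as lower, led by the chaperone *Calr* (-1.93) and the disulphide isomerase *Pdia3* (-1.88), both of the peptide-loading complex. Among 28 regulators of class I transcription, 13 passed as higher and 10 as lower. *Irf8*, a transcription factor of B and myeloid cells, had the largest rise (7.97), having met the filter only through the lines, followed by the histone methyltransferase *Ezh2* (3.79). The interferon-γ receptor chain *Ifngr2* (-2.63) and *Stat3* (-2.10) fell most.

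**Figure D4:**
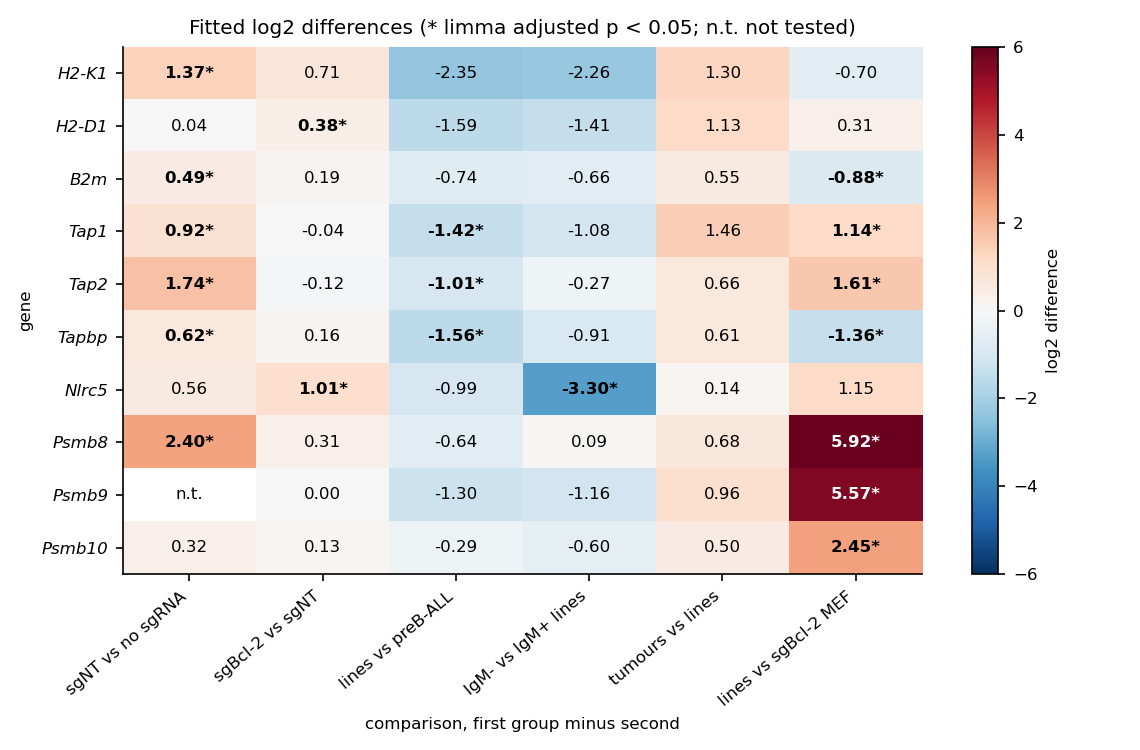
Fitted log2 difference of each of the 10 genes (rows) in 6 comparisons (columns; those with WT MEFs are left out), first-named group minus second, with blue for lower, red for higher, an asterisk and bold type for an adjusted p under 0.05 in limma, and n.t. for a gene not tested. All 10 genes were lower in the lymphoma lines than in preB-ALL and all 10 were higher in the primary tumours than in the lines of the same mice, where none passed the test.

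Within the lymphoma lines, the IgM-negative lines were compared with the IgM-positive lines, IgM being the surface antigen receptor of a B cell. The label is not an absence of transcript, since *Ighm*, the gene of the IgM heavy chain, was at 1178 and 1441 CPM in the IgM-negative lines and at 1462 to 2711 CPM in the IgM-positive lines. *Nlrc5*, the activator of the pathway, was the 1 gene of the 10 that passed the test. It was at 4.10 CPM in line 18 and 6.55 CPM in line 19, and at 83.7, 73.7, 37.7 and 37.0 CPM in lines 14, 15, 16 and 17. The 2 IgM-negative lines were thus below all 4 IgM-positive lines, and within the range of the MEFs (2.75 to 14.4 CPM). The log2 difference was -3.30 (SE 0.41, limma, adjusted p = 0.0328), or 10.9-fold in mean CPM. Over all 12386 genes tested, 0.549% passed as lower. This call rests on few lines: with edgeR or limma-voom on the recovered reads no member passed, where 0.194% and 0.00807% of all genes did. Nor did any without line 14, 15 or 17, where 0.290%, 0.399% and 0.287% of all genes passed. Leaving out line 18 or 19 leaves 1 in its group. Over all lines left out in turn, the *Nlrc5* difference was -3.60 to -2.99. *Nlrc5* passed under 6 of 13 alternative settings.

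The classical heavy chains lay in the same direction. *H2-K1* was at 38.6 and 39.1 CPM in lines 18 and 19, against 346, 246, 163 and 102 CPM in lines 14, 15, 16 and 17. *H2-D1* was at 71.6 and 76.7 CPM, against 311, 231, 189 and 131 CPM. The IgM-positive lines kept one order for both genes, with line 14 highest and line 17 lowest, and the IgM-negative lines lay between the 2 MEF libraries without an sgRNA for *H2-K1* (35.0 and 47.1 CPM) and below them for *H2-D1* (79.2 and 85.5 CPM). The differences of -2.26 for *H2-K1* (SE 0.45, limma, adjusted p = 0.131) and -1.41 for *H2-D1* (SE 0.32, adjusted p = 0.188) did not pass the test over all genes. The light chain *B2m* was at 292 and 236 CPM in the IgM-negative and between 388 and 488 CPM in the IgM-positive lines (-0.66, SE 0.16, limma, adjusted p = 0.232).

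*Tap1*, at 24.3 and 23.6 CPM in the IgM-negative lines and at 64.1, 54.1, 46.0 and 48.8 CPM in the IgM-positive lines, had the smallest adjusted p after *Nlrc5* (-1.08, SE 0.17, limma, adjusted p = 0.0769). *Tap2*, its partner in the transporter, was at 44.4 and 26.3 CPM, against 49.2, 30.7, 47.2 and 47.7 CPM, and the groups overlapped (-0.27, SE 0.32, limma, adjusted p = 0.780). *Tapbp* was at 25.0 and 32.9 CPM, below the 40.8 to 73.4 CPM of the IgM-positive lines (-0.91, SE 0.25, adjusted p = 0.285). Of the immunoproteasome genes, *Psmb9* and *Psmb10* lay lower in both IgM-negative lines and *Psmb8* did not, and none passed. *Psmb9* was at 16.7 and 16.2 CPM, against 56.2, 41.2, 28.9 and 32.9 CPM (-1.16, SE 0.28, limma, adjusted p = 0.208). *Psmb10* was at 39.9 and 54.6 CPM, against 66.0 to 81.8 CPM (-0.60, SE 0.16, limma, adjusted p = 0.257). *Psmb8* was at 144 and 130 CPM, inside the 104 to 175 CPM of the IgM-positive lines (0.09, SE 0.22, limma, adjusted p = 0.904).

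For 8 of the 10 genes, all but *Tap2* and *Psmb8*, both IgM-negative lines lay below all 4 IgM-positive lines, as for 14.8% of the 12386 genes tested, and 8 had an unadjusted p under 0.05 in limma, as did 11.3% of all genes tested. The median difference over the 10 genes was -1.0, against -0.02 over all genes tested. Among 13 other class I heavy chain genes, 2 passed as lower. *Mr1* (-5.36, limma, adjusted p = 0.00896), which presents metabolites to MAIT cells, met the filter only through the IgM-positive lines. *H2-Q4* (-4.80, limma, adjusted p = 0.0322) was at a mean of 1.71 CPM against 42.7 CPM. With limma-voom no gene of the table passed as lower, so both calls were lost there. None of 11 peptide trimming and loading helpers, of 3 constitutive catalytic subunits, of 16 other 20S genes, of 4 activator genes or of 29 regulators passed in limma. Mitochondrial reads were 7.18% and 7.16% of the total in lines 18 and 19 and 5.30% to 6.73% in the IgM-positive lines. Markers of cell type moved with the label as well. The summed level of 10 B cell markers was 1211 to 1351 CPM in the IgM-negative and 1966 to 2968 CPM in the IgM-positive lines, with *Blk*, *Cd74* and *Ms4a1* under 1 CPM in both IgM-negative lines. The 6 dendritic cell markers summed to 38.9 to 42.4 CPM against 2.03 to 23.4 CPM, of which *Flt3*, a receptor of early B lineage cells as well, was the 1 marker at 1 CPM or more in the IgM-negative lines. Endothelial markers summed to 2.85 to 15.5 CPM against 22.7 to 43.0 CPM, with 5 of 6 under 1 CPM in the IgM-negative and 4 of 6 in the IgM-positive lines, and NK cell markers to 0.352 to 0.388 CPM against 0.548 to 1.34 CPM. The part of these differences in the class I genes was not tested. With 2 lines in 1 group, lineage stage and other differences between single tumours cannot be told apart from the IgM label.

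**Figure D5:**
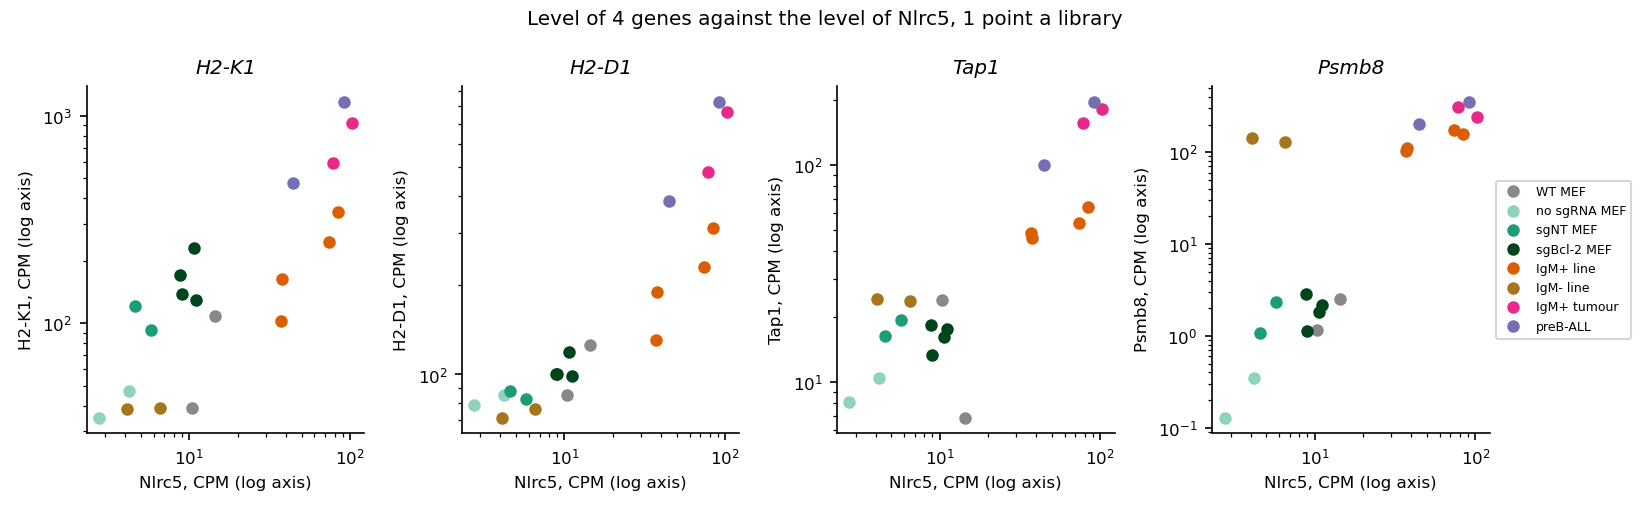
CPM of *H2-K1*, *H2-D1*, *Tap1* and *Psmb8* (y axes, log scale) against CPM of *Nlrc5* (x axes, log scale), with 1 point per library in the colour of its group. The 2 IgM-negative lines lie at the low end of the MEFs in the *H2-K1* and *H2-D1* panels and by the highest MEF library in the *Tap1* panel, at 23.6 and 24.3 CPM, but with the other lymphoma lines in the *Psmb8* panel, at 130 and 144 CPM.

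The plot of each gene against *Nlrc5* describes libraries of different cell types, and no test was made of it. *H2-K1*, *H2-D1* and *Tap1* were highest in the 4 primary tumour and preB-ALL libraries, where *Nlrc5* was 44.4 CPM or more. Lines 14 and 15 went against this order, with *Nlrc5* at 83.7 and 73.7 CPM, above the 44.4 CPM of preB-ALL library 1, and less *H2-K1* (346 and 246 against 474 CPM), *H2-D1* (311 and 231 against 383 CPM) and *Tap1* (64.1 and 54.1 against 99.7 CPM). WT MEF library 2 also went against it for *Tap1*, with the highest *Nlrc5* of the MEFs at 14.4 CPM and the lowest *Tap1* at 6.88 CPM. *Psmb8* did not follow *Nlrc5* in the IgM-negative lines, which had the *Nlrc5* level of MEFs and the *Psmb8* level of the other lymphoma lines.

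The primary tumours were compared with the cell lines of the same mice, which differ in that the tumour is tissue and the line was grown in culture. All 10 genes had a higher mean in the tumours, and none passed the test in limma, where 0.330% of the 12719 genes tested did. At an unadjusted p under 0.05, 7 of the 10 genes differed, as did 25.9% of all genes tested, and neither edgeR nor limma-voom called any member. *H2-K1* was at 595 and 924 CPM in tumours 20 and 21, against 346 and 246 CPM in lines 14 and 15 (log2 difference 1.30, SE 0.33, limma, adjusted p = 0.109). *H2-D1* was at 482 and 766 CPM, against 311 and 231 CPM (1.13, SE 0.32, limma, adjusted p = 0.129). *Tap1*, at 157 and 181 CPM against 64.1 and 54.1 CPM, had the largest difference (1.46, SE 0.20, limma, adjusted p = 0.0659). These 3 genes did not overlap between the tumours and the lines.

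Of the other genes, *Psmb9* was at 90.8 and 104 CPM in the tumours and at 56.2 and 41.2 CPM in the lines (0.96, SE 0.25, limma, adjusted p = 0.109). *Psmb8* was at 312 and 241 CPM, against 156 and 175 CPM (0.68, SE 0.18, adjusted p = 0.113), and *Psmb10* at 116 and 99.5 CPM, against 66.0 and 81.8 CPM (0.50, SE 0.17, adjusted p = 0.173). The immunoproteasome genes thus lay higher in both tumours. *Tapbp* was at 99.6 and 124 CPM, against 66.8 and 73.4 CPM (0.61, SE 0.18, limma, adjusted p = 0.138), and *Tap2* at 49.9 and 80.6 CPM, against 49.2 and 30.7 CPM (0.66, SE 0.39, adjusted p = 0.357). *B2m* was at 594 and 733 CPM, against 488 and 388 CPM (0.55, SE 0.23, limma, adjusted p = 0.230). Only *Nlrc5* overlapped, at 78.0 and 102 CPM in the tumours and 83.7 and 73.7 CPM in the lines (0.14, SE 0.22, limma, adjusted p = 0.740). The other 9 genes were higher in both tumours than in both lines, as were 31.1% of the 12719 genes tested.

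The pairing of tumours and lines decided this comparison. With the mouse numbers of the titles as a replicate block, 9 of the 10 genes passed as higher, where 13.3% of all genes did. With 4 libraries, this fit leaves little data to estimate the spread. With the mouse numbers of the descriptions, which are the opposite, none passed, where 0% of the 12719 genes tested did. When all 4 IgM-positive lines were used in place of the lines of the same mice, 5 genes passed as higher, where 6.02% of all genes did. Across 11633 genes, the differences between the tumours and between the lines correlated at 0.596 by the titles and therefore at -0.596 by the descriptions, which is a description of these 4 libraries.

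Mitochondrial reads were 7.80% and 9.04% of the total in tumours 20 and 21, against 6.73% and 5.30% in lines 14 and 15. Transcripts of other cells were also higher in the tumours. Of 10 macrophage markers the summed level was 19.6 to 28.4 CPM in the tumours and 5.84 to 6.15 CPM in the lines, with *Adgre1* at 13.3 and 6.33 CPM in the tumours and at 0 in lines 14 and 15, and *Cd68* at 10.3 and 6.33 CPM against 3.12 and 3.52 CPM. The macrophage markers *C1qa*, *C1qb*, *C1qc* and *Mertk* were under 1 CPM in both tumours and *Marco* was at 0. Of 7 NK cell markers it was 7.49 to 12.8 CPM against 0.937 to 1.34 CPM. Most of this sum was *Prf1*, at 4.82 and 12.2 CPM in the tumours and at 1.18 and 0.712 CPM in lines 14 and 15, and 5 of the 7 markers (*Ncr1*, *Klrb1c*, *Klrk1*, *Gzma* and *Gzmb*) were under 1 CPM in both tumours. T cell markers summed to 2.74 to 3.55 CPM against 1.09 to 1.39 CPM, with all 8 under 1 CPM in both tumours, and all 12 fibroblast markers were under 1 CPM in both. Dendritic cell markers summed to 6.78 to 12.6 CPM in the tumours against 2.03 to 2.85 CPM, with 4 of 6 under 1 CPM in both tumours, granulocyte markers to 2.19 to 4.34 CPM against 0.0406 to 0.112 CPM, with 6 of 8 under 1 CPM, and erythroid markers to 2.58 to 5.34 CPM against 0.243 to 0.825 CPM, with 3 of 5 under 1 CPM. The summed level of 10 B cell markers was 9619 to 9898 CPM in the tumours against 2608 to 2968 CPM in these lines. The part of these cells in the differences was not tested, and in bulk libraries more cells of a type and more RNA per cell cannot be told apart. Of 14 other class I heavy chain genes tested, *H2-T23*, the gene for the ligand of the NK receptors CD94/NKG2, passed as higher (2.37, limma, adjusted p = 0.0498). It was at a mean of 171 CPM against 32.0 CPM. With edgeR, with limma-voom or without the filter on low values no gene of the table passed, so this call was lost there. No gene of the other 5 pathway lists passed in limma.

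The study also compared its lymphoma lines with preB-ALL, another B lineage tumour. All 10 genes had a lower mean in the lines, and 3 passed as lower, where 22.5% of the 13961 genes tested did. They were the 3 genes of peptide transport and loading. *Tapbp*, at 121 and 238 CPM in preB-ALL and at 25.0 to 73.4 CPM in the lines (median 45.3), fell by 1.56 (SE 0.40, limma, adjusted p = 0.0140). *Tap1*, at 99.7 and 196 CPM against 23.6 to 64.1 CPM (median 47.4), fell by 1.42 (SE 0.41, limma, adjusted p = 0.0238). *Tap2*, at 71.0 and 150.1 CPM against 26.3 to 49.2 CPM (median 45.8), fell by 1.01 (SE 0.34, limma, adjusted p = 0.0397). No line overlapped a preB-ALL library for these genes, and preB-ALL library 2 was above library 1 for all 3.

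The heavy chains had larger differences with larger errors. *H2-K1* was at 474 and 1170 CPM in preB-ALL and from 38.6 to 346 CPM in the lines (log2 difference -2.35, SE 0.86, limma, adjusted p = 0.0548). *H2-D1* was at 383 and 830 CPM, against 71.6 to 311 CPM (-1.59, SE 0.57, limma, adjusted p = 0.0509). *B2m* was at 600.1 and 1019 CPM, against 236 to 488 CPM (-0.74, SE 0.29, limma, adjusted p = 0.0727). All lines were below both preB-ALL libraries for these 3 genes, although none passed, and in all 9 of the 10 genes were so placed, as were 38.3% of all genes tested. *Psmb8* was at 205 and 354 CPM (-0.64, SE 0.24, adjusted p = 0.0575), *Psmb9* at 66.9 and 127 CPM (-1.30, SE 0.47, adjusted p = 0.0528) and *Psmb10* at 91.6 and 108 CPM (-0.29, SE 0.24, limma, adjusted p = 0.347). *Nlrc5*, at 44.4 and 91.1 CPM in preB-ALL, overlapped with the lines (-0.99, SE 1.14, limma, adjusted p = 0.507), since the IgM-positive lines lay at 37.0 to 83.7 CPM and only the IgM-negative lines far below.

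The count of 3 depended on single libraries and on the scaling. Without line 14 or line 15, 6 genes passed, where 42.6% and 43.9% of all genes did in either direction. In the main fit 43.4% did. Leaving out a preB-ALL library leaves 1 in that group. Over all libraries left out in turn, the difference was -2.03 to -1.17 for *Tapbp*, -1.89 to -1.03 for *Tap1* and -1.54 to -0.57 for *Tap2*. Leaving out the scaling factor moved the median of all genes by -0.35, and 8 genes then passed, where 43.6% of all genes did in either direction. With the primary tumours in place of the lines of their mice none passed, where 25.9% of all genes did. The median difference over the 10 genes was -1.16, against -0.07 over all genes tested. The preB-ALL libraries carried summed fibroblast marker levels of 1674 to 3731 CPM, with *Dcn* at 0 and 2 further markers of 12 under 1 CPM, against 1.99 to 6.75 CPM in the lines. The B cell markers (4471 to 8702 against 1211 to 2968 CPM), endothelial markers (63.6 to 87.9 against 2.85 to 43.0 CPM, 5 of 6 under 1 CPM in preB-ALL) and macrophage markers (11.9 to 18.4 against 2.11 to 6.15 CPM, 6 of 10 under 1 CPM) were also higher in both preB-ALL libraries than in every line. Fibroblasts of this study expressed class I genes as well. For each of the 10 genes but *B2m*, every MEF library lay below both preB-ALL libraries, with *H2-K1* at most 230 CPM and *Tapbp* at most 112 CPM. *B2m* reached 633 CPM in the MEFs, against 600.1 CPM in preB-ALL library 1. The part of these transcripts was not tested, while cell type, RNA kit and sequencing run cannot be told apart.

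Among the other genes of the pathway, 10 of 16 class I heavy chain genes tested passed as lower in the lines than in preB-ALL and none as higher (list median -2.70), led by *Fcgrt* (-7.00) and *H2-Q10* (-3.82), which with *Cd1d2* are the 3 that met the filter only through preB-ALL. Over all genes tested, 22.5% passed as lower and 20.9% as higher. Of 11 peptide trimming and loading helpers, the aminopeptidase *Lnpep* passed as higher (1.48) and 3 as lower, led by *Tapbpl* (-1.17), a relative of tapasin, and *Pdia3* (-0.87). *Psmb6* was the 1 of 3 constitutive catalytic subunits that passed (-0.39, limma, adjusted p = 0.0341). Of 16 other 20S genes, 5 passed as higher, led by *Psma5* (1.43) and *Psma3* (1.33), and *Psmb1* (-0.60) passed as lower. Of the 4 activator genes, 3 passed as higher, led by *Psme4* (1.06) and *Psme3* (0.92), whereas *Psme1* (-0.95) fell. Of 29 regulators, 6 passed as higher, led by *Atf1* (1.31) and *Suz12* (1.31), and 8 as lower, led by the interferon response factors *Irf9* (-2.24) and *Irf1* (-1.75).

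In the MEFs, the libraries with sgNT were compared with those without an sgRNA, which share the genotype and differ in the transduced sgRNA construct. Of the 9 genes tested, 6 passed as higher with sgNT, where 20.3% of the 14655 genes tested did. Of the 8 that met the filter on low values in both groups, all but *Psmb8*, 5 passed. *Psmb9* was too low to be tested, at 3 and 5 reads without an sgRNA. *H2-K1* was at 47.1 and 35.0 CPM without an sgRNA and at 93.1 and 121 CPM with sgNT (log2 difference 1.37, SE 0.17, limma, adjusted p = 0.000641), a 2.61-fold difference of mean CPM. *Tap2* was at 4.57 and 3.23 CPM and at 14.0 and 12.5 CPM (1.74, SE 0.19, limma, adjusted p = 0.000346). *Psmb8* was at 0.345 and 0.129 CPM, which are 8 and 3 reads, and at 2.34 and 1.08 CPM (2.40, SE 0.48, limma, adjusted p = 0.00591), a difference that was 1.09 with a pseudocount of 1 CPM. *Psmb8* met the filter only through the sgNT libraries and therefore had to differ, and its call was lost without sgNT library 1. The sgNT libraries were above the libraries without an sgRNA for these 3 genes, as for 37.9% of all genes tested.

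Smaller rises were found in 3 further genes. *Tap1* was at 10.4 and 8.13 CPM without an sgRNA and at 19.3 and 16.3 CPM with sgNT (0.92, SE 0.15, limma, adjusted p = 0.00209). *Tapbp* was at 63.0 and 61.7 CPM and at 95.8 and 98.4 CPM (0.62, SE 0.07, limma, adjusted p = 0.000405), and *B2m* at 399 and 384 CPM and at 606 and 507 CPM (0.49, SE 0.09, limma, adjusted p = 0.00353). These genes did not overlap between the groups either. *H2-D1* was at 85.5 and 79.2 CPM and at 82.5 and 88.0 CPM (0.04, SE 0.08, limma, adjusted p = 0.748), and its direction turned when sgNT library 2 or library 2 without an sgRNA was left out. When all class I heavy chain rows were summed into 1, to allow for shared reads, the sum rose by 0.71 on the log2 scale. *Nlrc5* was at 4.22 and 2.75 CPM and at 5.75 and 4.59 CPM (0.56, SE 0.23, limma, adjusted p = 0.0911), and *Psmb10* at 7.93 and 7.65 CPM and at 9.94 and 9.77 CPM (0.32, SE 0.13, limma, adjusted p = 0.0780). The median over the 9 genes was 0.62, and 0.59 without *Psmb8*, against 0.00 over all genes tested. The count was 2 when all 20 libraries shared 1 estimate of the spread, where 2.57% of all genes passed. Leaving out 1 library leaves 1 in its group. The differences of the 6 genes that passed then stayed positive, the smallest at 0.40 for *B2m*. The summed fibroblast markers moved with the comparison, at 13507 to 14024 CPM with sgNT and 9406 to 11076 CPM without an sgRNA, as did the B cell markers at 19.7 to 25.9 against 12.3 to 14.4 CPM, with 9 of 10 under 1 CPM in both groups, and their part was not tested.

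The other class I heavy chain genes were also higher with sgNT. Of 16 tested, 11 passed as higher and none as lower, with a list median of 1.20, led by *H2-Q10* (2.91, limma, adjusted p = 0.00313) and *H2-Q6* (2.55, limma, adjusted p = 0.00127), which with *H2-K2* are the 3 that met the filter only through the sgNT libraries. Of 28 regulators, 8 passed as higher, led by *Ciita* (2.09), the class II relative of NLRC5, at a mean of 0.794 against 0.108 CPM and over the filter only with sgNT, and by *Stat2* (0.99), which carries the type I interferon signal. In the other direction 4 regulators passed, led by *Ezh2* (-1.04) and *Irf1* (-0.58), where 20.9% of all genes tested passed as lower. Of 11 peptide trimming and loading helpers, *Tapbpl* (0.42) passed as higher and *Tpp2* (-0.29) as lower. None of the 3 constitutive catalytic subunits passed, whereas *Psma7* (-0.46) and *Psma1* (-0.34) of 16 other 20S genes and *Psme4* (-0.68) and *Psme3* (-0.21) of 4 activator genes passed as lower.

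Targeting of Bcl-2 was compared with sgNT, the same control libraries as above, so the 2 comparisons are not independent. Of the 10 genes, 2 passed as higher with sgBcl-2, where 6.61% of the 14676 genes tested did. *Nlrc5* was at 8.99, 11.1, 8.81 and 10.7 CPM with sgBcl-2 and at 5.75 and 4.59 CPM with sgNT (log2 difference 1.01, SE 0.15, limma, adjusted p = 0.00814). *H2-D1* was at 101, 99.02, 101 and 119 CPM, against 82.5 and 88.0 CPM (0.38, SE 0.10, limma, adjusted p = 0.0440). *H2-K1*, at 137.8, 129, 171 and 230 CPM against 93.1 and 121 CPM, did not pass (0.71, SE 0.23, limma, adjusted p = 0.0843). With the MEF line that sgBcl-2 and sgNT libraries share as a block, *H2-K1* passed as well (0.71, limma, adjusted p = 0.0112). In this fit 9.18% of all genes passed as higher. It also passed when the sgBcl-2 libraries were summed per line with the block kept (0.71, limma, adjusted p = 0.000661). That fit used 4 libraries, which leaves little data to estimate the spread. *H2-K1* passed only under these 2 of 16 alternative settings. For these 3 genes all 4 sgBcl-2 libraries were above both sgNT libraries, as for 13.0% of all genes tested. Without sgBcl-2 library 1, 2 or 3, 1 member passed, where 6.55%, 8.63% and 10.4% of all genes did in either direction. Leaving out an sgNT library leaves 1 in that group, and calls are not given for it. Over all libraries left out in turn, the difference was 0.88 to 1.145 for *Nlrc5* and 0.31 to 0.46 for *H2-D1*. Endothelial markers summed to 5.06 to 8.08 CPM with sgBcl-2 against 11.7 to 14.3 CPM with sgNT. The median difference over the 10 genes was 0.18, against -0.01 over all genes tested.

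The remaining 7 genes overlapped between sgBcl-2 and sgNT. *B2m* was at 516 to 633 CPM with sgBcl-2 against 507 to 606 CPM, *Tap1* at 13.3 to 18.4 CPM against 16.3 to 19.3 CPM, and *Tapbp* at 96.1 to 112 CPM against 95.8 to 98.4 CPM. *Tap2* was at 9.85 to 12.8 CPM, against 12.5 and 14.0 CPM, and the immunoproteasome genes overlapped likewise, with *Psmb8* at 1.12 to 2.83 CPM against 1.08 and 2.34 CPM. Of the pathway lists, *H2-Q10* (1.48, limma, adjusted p = 0.0372) was 1 of 17 other heavy chain genes, *Erap1* (0.63) 1 of 11 helpers and *Psme4* (0.30) 1 of 4 activators to pass as higher, and 5 of 28 regulators passed as higher, led by *Nfkb1* (0.63) and *Stat3* (0.63). No gene of these lists passed as lower.

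Against the WT MEFs, no member passed in limma. With sgNT, 0% of the 14560 genes tested passed, 589 genes (4.05%) had an unadjusted p under 0.05, and edgeR and limma-voom called no gene of the 10. For the MEFs without an sgRNA, 0% of 14546 genes passed, 1081 genes (7.43%) had an unadjusted p under 0.05, and edgeR and limma-voom called none of the 9 members tested. At an unadjusted p under 0.05, 2 members differed with sgNT, and 3 without an sgRNA (*Nlrc5*, *Tap2* and *Psmb8*, of which *Psmb8* met the filter on low values only through the WT MEFs and therefore had to differ). *Nlrc5* was at 10.3 and 14.4 CPM in the WT MEFs, above both sgNT libraries and both libraries without an sgRNA (unadjusted p = 0.0142 against sgNT). *Tapbp*, at 59.8 and 54.9 CPM in the WT MEFs, was below both sgNT libraries (unadjusted p = 0.0161) and both libraries without an sgRNA.

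The WT libraries lay apart from each other for most of the 10 genes. *H2-K1* was at 38.9 CPM in WT library 1 and 108 CPM in WT library 2, *H2-D1* at 85.1 and 126 CPM, and *B2m* at 448 and 616 CPM. *Tap1* was at 23.9 and 6.88 CPM, *Tap2* at 12.2 and 7.94 CPM, *Psmb8* at 1.17 and 2.51 CPM, *Psmb9* at 0.530 and 0.228 CPM and *Psmb10* at 9.55 and 17.7 CPM. Library 2, which held the macrophage and endothelial transcripts, was thus higher for the heavy chains, *B2m*, *Psmb8* and *Psmb10* and lower for the transporter and *Psmb9*. When it was left out, 3 members passed, 2 as higher and 1 as lower, with sgNT against the remaining WT library, where 11.2% of all genes did, and 4 members passed as lower without an sgRNA, where 15.0% did. Without WT library 1 instead, 6 of 10 members passed with sgNT, 3 in each direction, where 53.4% of all genes did, and 7 of 9 without an sgRNA, 1 as higher and 6 as lower, where 55.1% did. These counts assume that the single WT library varies like the other group. On simulated data with 4-fold changes in 200 genes, 18% of the changed genes were recovered in the comparison of sgNT with WT and 21.5% in that of no sgRNA with WT, against 90% for sgNT and no sgRNA.

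Ordered by mean CPM, the groups whose neighbours did not overlap gave the steps in the level of each gene. For *H2-K1*, preB-ALL (822 CPM) and the primary tumours (760 CPM) overlapped and lay above the IgM-positive lines (214.4 CPM), which overlapped with the sgBcl-2 MEFs (167 CPM). The sgNT MEFs (107 CPM) came next, without overlap with the sgBcl-2 MEFs, and from them on the sgNT MEFs, the WT MEFs, the MEFs without an sgRNA and the IgM-negative lines overlapped from neighbour to neighbour. For *Nlrc5* the primary tumours (90.2 CPM), preB-ALL (67.7 CPM) and the IgM-positive lines (58.0 CPM) overlapped and lay above the rest. For *Psmb8* the primary tumours and preB-ALL overlapped, both kinds of line overlapped below them at 137 CPM, and among the MEFs those without an sgRNA (0.237 CPM) lay below the other 3 groups, which overlapped. *Tapbp* had another order, in which both kinds of transduced MEFs (102 CPM with sgBcl-2 and 97.1 CPM with sgNT) came directly after preB-ALL (179.7 CPM) and the primary tumours (112 CPM), and the IgM-negative lines (29.0 CPM) were lowest.

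For each gene, the 2 other genes whose log2 level was most alike over the 20 libraries were listed among 16473 genes, as a description, since the libraries fall into a few cell types. *H2-K1* was most like the class I heavy chain gene *H2-Q4* (Pearson r 0.929), with which it can share reads. *H2-D1* was most like *Il10ra* (0.958), a cytokine receptor chain, and *Pinlyp* (0.951), and *B2m* like *Ddx58* (0.89), the viral RNA sensor RIG-I, and *Gsap* (0.872). *Tap1* was most like *Rbm43* (0.961) and *Pts* (0.958), *Tap2* like *Unc93b1* (0.958), a chaperone of endosomal Toll-like receptors, and *Ifi203* (0.953), and *Tapbp* like *Rab4b* (0.913) and *Gsap* (0.899). *Nlrc5* was most like the transcript *9330175E14Rik* (0.952) and *Emid1* (0.927). *Psmb8* followed *Apobec1* (0.986) and *Slc1a5* (0.984), *Psmb9* followed *Ighj4* (0.99) and the class II gene *H2-Ob* (0.989), and *Psmb10* followed *Acap1* and the B cell gene *Cd22* (both 0.988).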

How the data were processed

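RNA-seq was performed on 20 mouse libraries, which were grouped by their labels. The authors aligned reads with Rsubread to GRCm38 (mm10), counted them per Entrez gene and deposited counts per 1000000 reads (CPM) without a log. The kit does not mark strand, so reads of antisense partners cannot be told apart. The deposited CPM step in whole multiples of 1 read: 100% of values came out whole (tolerance 0.01 reads), giving depths of 12474885 to 26678417 reads. RefSeq GRCm38.p6 gave symbols for 25242 of 25869 genes.

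The 10 genes and all lists were chosen with earlier results of these data known. All 10 are named with their values. From each pathway list and comparison, the text names at most the 2 genes per direction with the largest difference among those that passed, plus *Psmb5*, *Psmb6* and *Psmb7*.

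In each of 8 comparisons, only the libraries of the groups compared were fitted. Genes were kept by filterByExpr, and limma (lmFit and eBayes with trend) was run on log2(CPM divided by the TMM factor + 0.1), which understates changes of low genes. P-values were adjusted by Benjamini-Hochberg over all genes tested, two-sided, with a threshold of 0.05. Folds are of mean CPM. Leaving out the TMM factor moved the median of all genes by over 0.1 (log2) in 2 comparisons, by -0.35 for lymphoma lines against preB-ALL and by 0.17 for lymphoma lines against sgBcl-2 MEFs. Ratios were tested by an exact permutation test over libraries. The fits were tested on simulated data. Promoter letters were searched on both strands of RefSeq windows. The *H2-K1* window starts from the more upstream of the 2 starts listed with promoter windows, which is 272 bases inside the RefSeq gene span.

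Alternatives were edgeR's quasi-likelihood test and limma-voom on the recovered reads, no scaling factor, a pseudocount of 1 CPM, no filter, all 20 libraries in 1 fit, class I heavy chain rows summed, other libraries for a group, replicate blocks and leaving out each library. The labels give sgRNA groups of the cassette MEFs the same line numbers. Deviations of same-numbered libraries correlated between -0.101 and 0.267, the fits had no block, and a value with the line as a block is given where it changes a call. A gene met the filter through 1 group only where the other had too few libraries at the filter's level, and its difference is then a description. R 4.3.3, limma 3.58.1, edgeR 4.0.16, Python 3.11.15, scipy 1.17.1 and matplotlib 3.10.9 were used.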

Additional observations from a re-analysis of the deposited data

Results flagged for a closer look

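In 39 sets of values from groups of 4 libraries or more, a check for a single library far from the others marked 2, which is close to the 1 in 20 that chance gives. *H2-D1* in the sgBcl-2 MEFs was highest in library 4, at 119 CPM against 101 CPM in the nearest library, a gap of 0.921 of the whole range of the group. *Tap2* in the IgM-positive lines was lowest in line 15, at 30.7 CPM against 47.2 CPM in the nearest line, a gap of 0.890 of the range.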

How the results depend on the processing

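Of the fitted differences of single genes that are given above, 776 values under alternative settings were computed, of which 767 kept their direction and 9 reversed, and all 36 alternative values of the 3 ratios kept theirs and their side of the threshold. These 9 were all of genes that had not passed: *H2-D1* with sgNT against no sgRNA (-0.0049 with all 20 libraries in the fit, and -0.043 to 0.12 when 1 library was left out, negative without sgNT library 2 or, at -0.019, no-sgRNA library 2), *Tap2* (-0.66 to 0.14, positive without line 19) and *Psmb8* (-0.025 to 0.20, negative without line 17) between IgM-negative and IgM-positive lines, *Nlrc5* in the primary tumours (-0.074 to 0.39, negative without tumour 21 and, at -0.0088, without line 15), and between lymphoma lines and sgBcl-2 MEFs *H2-K1* (0.17 with all 10 MEF libraries) and *H2-D1* (-0.38 with heavy chain rows summed). Of 340 further values, for differences that are not given above, 16 reversed, none of a gene that had passed: 6 for sgNT against WT (*B2m*, *H2-D1*, *Psmb8*, *Psmb9* and *Tap1*), 2 for no sgRNA against WT (*H2-K1* and *Tap1*) and 8 for sgBcl-2 against sgNT (*Psmb8*, *Psmb9* and *Tap1*). The number of genes that passed stayed within 1.5 times under 81 settings and moved under 33. The share of all genes that passed in either direction is given in brackets. With all 20 libraries in 1 fit it was 2 for no sgRNA against WT (2.99%), 2 for sgNT against no sgRNA (2.57%) and 0 for sgBcl-2 against sgNT (0.243%). In that fit it was 7 for lymphoma lines against preB-ALL (47.4%), 4 for the IgM comparison (3.58%) and 2 for tumours against lines (15.1%). With heavy chain rows summed it was 1 for sgBcl-2 (10.9%) and 5 for preB-ALL (43.4%), and without scaling 1 (12.6%) and 8 (43.6%). It was 0 with edgeR (0.194%) and with limma-voom (0.00807%) for the IgM comparison, and 0 with the primary tumours in place of lines for preB-ALL (25.9%). For tumours against lines it was 5 with 4 IgM-positive lines (10.9%) and 4 with all 6 (19.7%). Fits that leave 1 library in a group are left out of the following ranges. Leaving out 1 library gave 1 to 2 genes for sgBcl-2 against sgNT (6.55% to 11.2%) and 2 to 6 for preB-ALL (39.1% to 43.9%). For the IgM comparison it gave 0 to 1 (0.287% to 0.744%). The cause of these moves was not tested.

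With the MEF line as a replicate block, 6 genes passed for sgNT against no sgRNA (36.9% of all genes in either direction) and 3 for sgBcl-2 against sgNT (14.6%). In the latter *H2-K1* was the gene gained (adjusted p = 0.0112, limma), and this block changed no other call. For the tumours 9 passed with the mouse number of the titles as a replicate block (28.3% of all genes) and 0 with that of the descriptions (0%). Depth limits *Psmb8* and *Psmb9* in the MEFs, where a library held 3 to 70 and 3 to 21 reads.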
